A study of Mus musculus with 8 samples.

Results

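The fatty acid elongases and desaturases are enzymes of the endoplasmic reticulum that lengthen fatty acids and place double bonds in them. The 10 genes described here, Elovl1, Elovl3, Elovl4, Elovl5, Elovl6, Elovl7, Scd1, Scd2, Fads1 and Fads2, were taken by family name from the 20972 named genes on the arrays. The family was chosen by the Elovl3 values in this same contrast, in which Elovl3 was far higher in the knockout fat, and the other members came in with it by name. They were read by 12 probes. Of the 10 genes, 9 were measured above background on enough arrays to enter the comparison, and Elovl4 was not. RNA came from 4 Senp2-aKO and 4 control samples of mouse inguinal fat (iWAT), a white adipose depot of the groin that lies below the skin. Senp2-aKO mice carried floxed Senp2 alleles (Senp2flox/flox) with a Cre recombinase under the adiponectin promoter (Adipoq Cre), and control mice carried the same floxed alleles without Cre, so that deletion is limited to adipocytes and the other cells of the pad keep Senp2. All mice were fed a diet with 58 kcal% fat for 12 weeks from 8 weeks of age and were housed at 22 to 24 °C.

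Fatty acid synthase releases mainly palmitate. Elongases then add carbon from malonyl-CoA in a cycle of reactions, and each elongase sets the first and rate-limiting step for its own range of chain lengths. Stearoyl-CoA desaturases place the double bond that makes oleate and palmitoleate, and the Fads desaturases act with Elovl5 on the polyunsaturated acids of the diet. Elovl3 makes saturated and monounsaturated very long chains, is abundant in brown fat, where cold induces it, and is also found in skin.

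Levels are given as the log2 processed signal relative to the 75th percentile of each array, so a value of 0 lies at that percentile. They compare the same probe between arrays and cannot rank one gene against another, since probes differ in how they bind. The 75th percentile itself was 324 to 382 in Senp2-aKO arrays and 408 to 446 in control arrays, and no spot was saturated. All 8 arrays lay on 1 slide, with each group in a row of its own, so row and group cannot be told apart. Senp2 had a level of 2.18 ± 0.04 in Senp2-aKO fat and 2.45 ± 0.06 in control fat (SD, n = 4 each; limma adjusted p = 0.0507), from 1 probe whose place relative to the deleted part is not given. The defining adipocyte markers were present, with all 10 above background and a mean level of 6.81 to 7.26 in Senp2-aKO and 6.91 to 7.17 in control samples. Singly, 1 of the 10 rose (Pnpla2, log2 difference 0.52, limma adjusted p = 0.0299) and 1 fell (Lep, -1.85, adjusted p = 0.00761). Over all genes 7.29% rose and 7.12% fell. Array aKO 2 stood apart. Its mean over 5 measured B lymphocyte markers was 2.08, against -3.23 to -2.92 on the other Senp2-aKO arrays and -3.53 to -0.64 on the control arrays, and its mean over 6 T lymphocyte markers was 2.64, against -1.44 to -0.36 and -0.91 to 0.19. Values that rest on aKO 2 are therefore given with and without it.

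Elovl3 was the member that chose the set, and its values are given as a description with no test. Its level was 0.65, 1.43, 1.25 and 3.82 in the 4 Senp2-aKO samples, against -4.28, -4.04, -3.01 and -4.32 in the control samples. Every Senp2-aKO sample lay above every control sample, and aKO 4 lay well above the other 3. The means were 1.79 ± 1.39 in Senp2-aKO and -3.91 ± 0.61 in control fat (SD, n = 4 each), a difference of 5.70 on the log2 scale (SE 0.66) or 52.0-fold (95% interval 18.3 to 148). The interval takes no account of the choice of Elovl3 by these same values and is no test. The probe was well above background on all 4 Senp2-aKO arrays and on 3 of 4 control arrays, with control 1 dim. The control mean and the fold therefore rest in part on a signal near background. The difference was 5.02 without aKO 4 and 5.82 without aKO 2. With a background model that adds an offset before the logarithm (normexp, offset 50, with quantile normalisation) it was 3.85.

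The spread of Elovl3 within each group was wide as well. Its SD among Senp2-aKO samples was larger than that of 98.6% of the 14730 genes, and its SD among control samples larger than that of 95.3%. The control sample with the most Elovl3 was control 3, which also had the highest skeletal muscle mean of the controls, 1.95. That muscle mean, over 15 of 15 listed markers, was 3.68 to 5.27 in Senp2-aKO and -1.40 to 1.95 in control samples (exact permutation p = 0.0286, the smallest that 4 against 4 arrays allow), and 13 of the 15 rose. Among Senp2-aKO samples the highest muscle mean was on aKO 3, at 5.27, and the highest Elovl3 on aKO 4, whose muscle mean was 4.42. The part of muscle in the Elovl3 difference was not tested.

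Skin is a known site of Elovl3 and the pad lies beneath it, so skin and sebaceous gland markers were read on the same arrays. The mean of the 6 measured epidermal markers was -0.64 to -0.41 in Senp2-aKO and -1.19 to -0.93 in control samples (exact permutation p = 0.0286), and 3 of the 6 rose. Of the 10 epidermal markers listed, Krt1 and Krt15 were well above background on 0 of 8 arrays, Dsp on at most 1, and Flg had no named probe. Of 8 sebaceous gland markers, Dgat2l6, Awat1, Awat2 and Far2 were well above background on 0 of 8 arrays, and the mean of the other 4 was 0.06 to 0.58 in Senp2-aKO and 0.09 to 0.39 in control samples (exact permutation p = 0.314). Mammary epithelium markers, of which 5 of 10 were measured, had means of -1.47, -1.38, -2.03 and -3.70 in Senp2-aKO samples, against -4.83 to -3.75 in control samples (exact permutation p = 0.0286). Taken singly, 0 of the 5 rose and 0 fell in limma. Their log2 differences ran from 0.18 (Cldn4) to 4.10 (Ltf, limma adjusted p = 0.0644). Krt8, Epcam, Csn2, Csn3 and Wap did not pass the background filter. The lowest Senp2-aKO mean of the measured markers was on aKO 4, the array with the most Elovl3. The part of skin and of mammary epithelium in the Elovl3 difference was not tested.

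**Figure D1:**
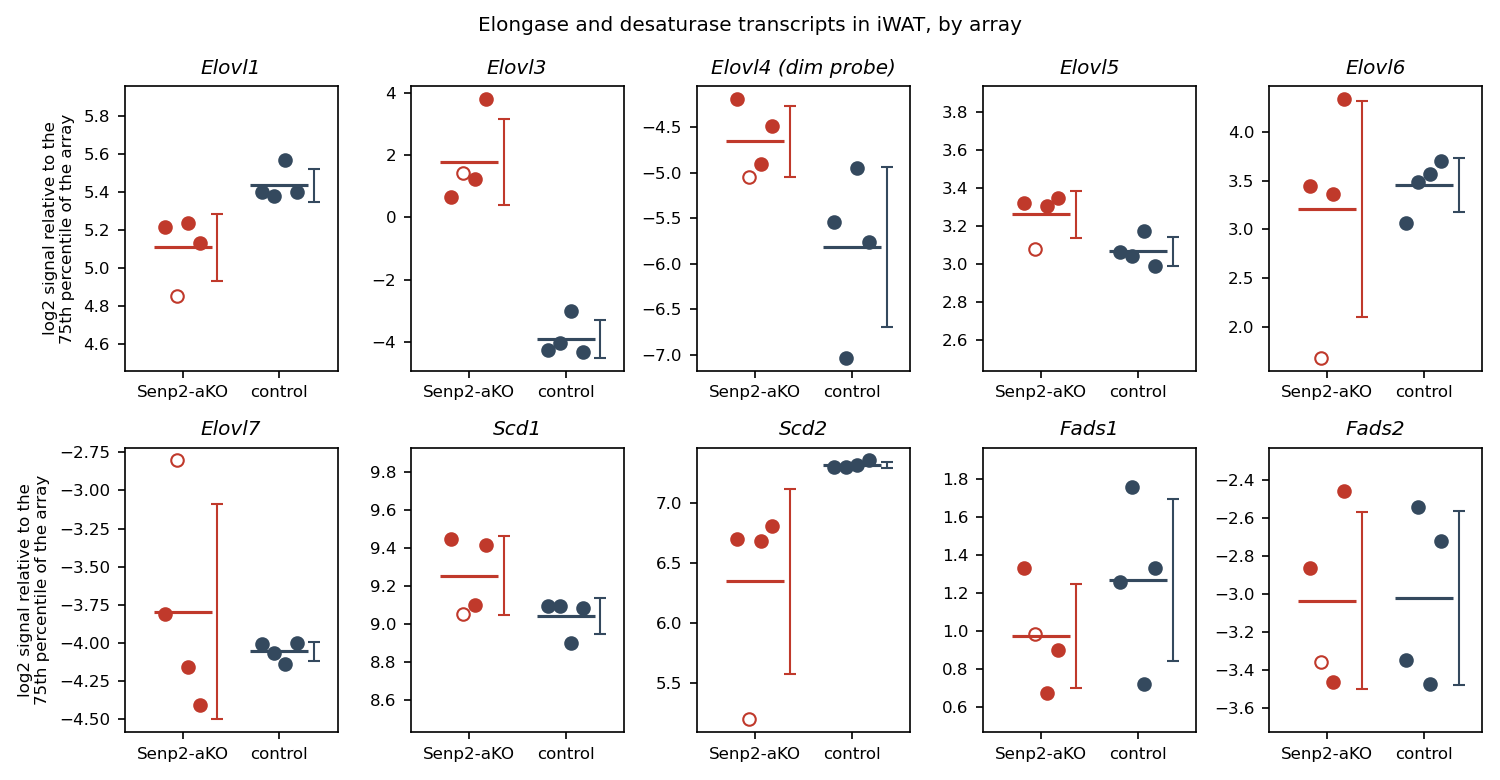
Levels of the 10 genes on each array (log2 signal relative to the 75th percentile of the array), with Senp2-aKO samples on the left and control samples on the right of each panel. Points are arrays, the open point is aKO 2, horizontal lines are means and bars at the side are 1 SD (n = 4 each). The groups are far apart for Elovl3 and also separate for Elovl1 and Scd2, while the axes differ between panels and the Elovl4 probe was dim on most arrays.

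Of the other 8 measured members, 0 rose and 0 fell in limma at an adjusted p under 0.05, and before adjustment 0 were higher and 2 lower at p under 0.05. Over all 14730 genes 14.4% passed, 7.29% higher and 7.12% lower. Their log2 differences ran from -0.97 (Scd2) to 0.26 (Elovl7), with a median of -0.13, against -0.02 over all genes. The groups did not overlap in 2 of the 8, Scd2 and Elovl1, against 26.3% of all genes. Without aKO 2, 1 of the 8 rose (Elovl5) and 1 fell (Scd2), where 9.21% of all genes rose and 9.99% fell, and the median of the 8 was 0.01.

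**Figure D2:**
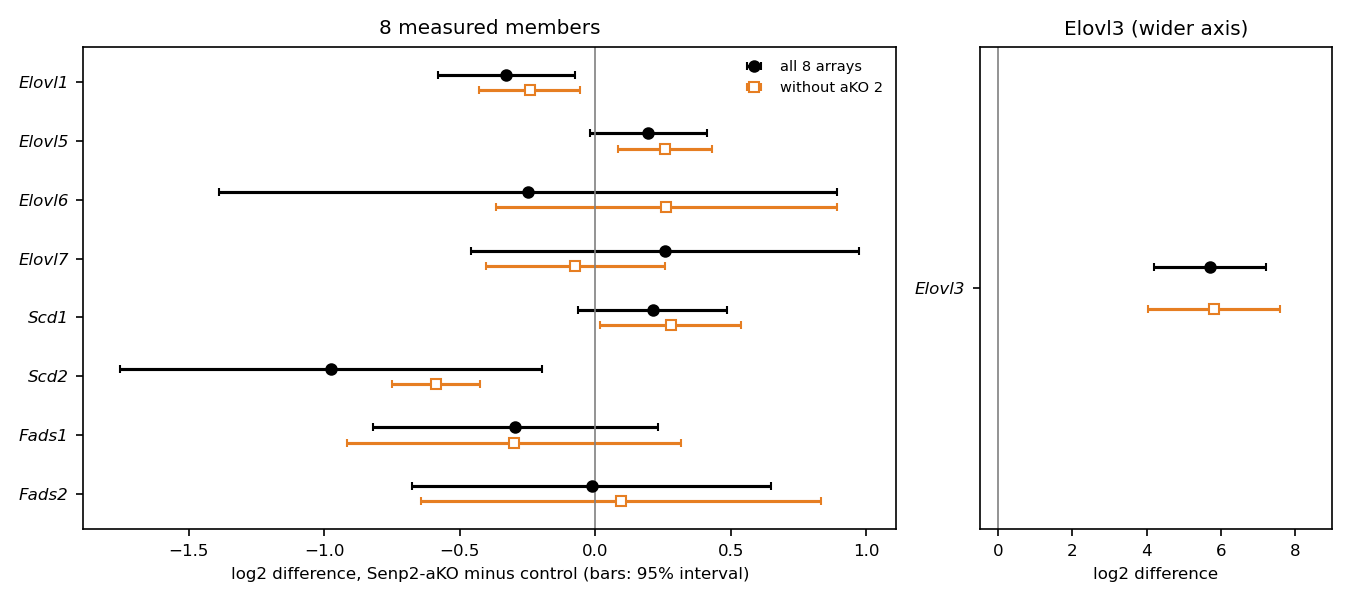
Log2 difference of each measured member, Senp2-aKO minus control, with its 95% interval from limma, over all 8 arrays (filled) and without aKO 2 (open). The interval of Scd2 is -1.75 to -0.20 over all arrays and -0.75 to -0.43 without aKO 2, and Elovl3 is drawn on its own, wider axis as a description.

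Scd2 and Scd1 encode stearoyl-CoA desaturases, which insert a double bond at the ninth carbon. Scd1 is the main form of adipose tissue and liver, and Scd2 that of brain and of early life. Scd2 had levels of 6.70, 5.19, 6.69 and 6.81 in Senp2-aKO fat, against 7.31, 7.31, 7.32 and 7.36 in control fat. All Senp2-aKO samples were lower than all control samples, and aKO 2 was the lowest by a wide margin. The log2 difference was -0.97 (95% interval -1.75 to -0.20, n = 4 each) and did not pass in limma (adjusted p = 0.0906). Control samples were unusually alike, with an SD of 0.02 that was larger than that of only 1.24% of genes, whereas the Senp2-aKO SD of 0.77 came mostly from aKO 2 and was 0.07 without it. Without aKO 2 Scd2 fell to 0.665 of its control level (log2 difference -0.59, 95% interval -0.75 to -0.43, 3 against 4 arrays, limma adjusted p = 0.00675). It also passed under quantile normalisation (-1.20, adjusted p = 0.0329), with normexp (-1.18, adjusted p = 0.0233) and with array weights, which give less weight to arrays that stand apart (-0.64, adjusted p = 0.0230). In a whole fat pad, less RNA per cell and fewer cells of a type cannot be told apart.

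Scd1 stood at 9.45, 9.05, 9.10 and 9.41 in Senp2-aKO fat, against 9.09, 9.09, 8.90 and 9.08 in control fat. The groups overlapped, with aKO 1 and aKO 4 above the controls and aKO 2 and aKO 3 at their level. The log2 difference was 0.21 (95% interval -0.06 to 0.49) and did not pass (limma adjusted p = 0.261, n = 4 each). It was 0.12 with median scaling, 0.01 under quantile normalisation and -0.01 with normexp. Quantile normalisation, part of both last settings, gives every array the same set of values. That can compress differences of very bright probes such as this one. Before scaling, the processed signal ran from 190603 to 226803 on Senp2-aKO arrays and from 212688 to 224059 on control arrays. The sign of the Scd1 difference therefore rests on the scaling. The genes Scd3, Scd2, Scd4 and Scd1 follow each other on mouse chromosome 19 in the RefSeq annotation (GRCm38.p6). The 2 that are no members, Scd3 and Scd4, did not pass either, with log2 differences of 0.01 (SE 0.23, adjusted p = 0.980) and -0.51 (SE 0.27, adjusted p = 0.230), or 0.20 and -0.62 without aKO 2. These genes are close in sequence, and binding of one transcript to the probe of another was not tested.

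Elovl1 makes the saturated and monounsaturated very long chains of sphingolipids. Its level was 5.21, 4.85, 5.24 and 5.13 in Senp2-aKO samples, against 5.40, 5.38, 5.56 and 5.40 in control samples. The groups did not overlap, and aKO 2 was again the lowest. For Elovl1 the log2 difference was -0.33 (95% interval -0.58 to -0.08, n = 4 each) and did not pass in limma (adjusted p = 0.0828). The log2 difference of a second Elovl1 probe was -0.36 (SE 0.12, n = 4 each), with a limma adjusted p of 0.0931 when every kept probe is tested by itself. Elovl1 passed under quantile normalisation (-0.41, adjusted p = 0.0268), with normexp (-0.38, adjusted p = 0.0242) and with array weights (-0.26, adjusted p = 0.0444), and not without aKO 2 (-0.24, adjusted p = 0.0713).

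Elovl5 lengthens polyunsaturated acids on the way to arachidonate and docosahexaenoate. Its level was 3.32, 3.08, 3.31 and 3.35 in Senp2-aKO samples, against 3.06, 3.04, 3.17 and 2.99 in control samples. The Senp2-aKO samples other than aKO 2 lay above all controls, and aKO 2 lay among the controls. The log2 difference was 0.20 (95% interval -0.02 to 0.41) and did not pass (limma adjusted p = 0.188, n = 4 each). Without aKO 2 Elovl5 rose 1.20-fold (log2 difference 0.26, 95% interval 0.08 to 0.43, 3 against 4 arrays, limma adjusted p = 0.0499), a value just inside the threshold, and with array weights it also passed (0.26, adjusted p = 0.0343). Over all arrays it did not pass in limma under quantile normalisation (0.19, adjusted p = 0.123), normexp (0.17, adjusted p = 0.151) or median scaling (0.10, adjusted p = 0.565). Before scaling, the processed signal ran from 3038 to 3777 on Senp2-aKO arrays and from 3265 to 4026 on control arrays.

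The promoters of Elovl1 and Elovl5 are shown because, among members with a promoter in the RefSeq table (build GRCm38.p6), these were the ones whose call changed with the processing or with aKO 2. Of the 10 members 6 were matched there, with 7 promoters in all, and Elovl3, Scd1, Scd2 and Fads1 were not matched. Each sequence is the 250 bases before the start site, on the + strand, at chr4:118427843-118428092 for Elovl1 and chr9:77917115-77917364 for Elovl5. Capitals mark CCAAT boxes, read as CCAAT or, on the other strand, ATTGG, and the E-box CACGTG.
Elovl1: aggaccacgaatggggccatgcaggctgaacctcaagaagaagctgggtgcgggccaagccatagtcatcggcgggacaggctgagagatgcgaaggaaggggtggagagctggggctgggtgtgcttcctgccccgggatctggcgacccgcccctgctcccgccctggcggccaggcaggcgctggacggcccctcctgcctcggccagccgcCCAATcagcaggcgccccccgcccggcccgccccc
Elovl5: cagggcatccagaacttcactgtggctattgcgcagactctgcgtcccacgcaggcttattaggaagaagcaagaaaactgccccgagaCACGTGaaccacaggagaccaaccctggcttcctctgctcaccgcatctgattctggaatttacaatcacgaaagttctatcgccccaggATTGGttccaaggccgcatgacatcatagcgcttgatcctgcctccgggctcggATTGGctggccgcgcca
The Elovl1 promoter shown holds 1 CCAAT box, which begins 35 bases before the start site. A second Elovl1 promoter in the table, at chr4:118429451-118429700, holds none of the motifs searched. The Elovl5 promoter holds 2 in the reverse orientation, beginning 71 and 17 bases before the start site, and an E-box that begins 161 bases before it. Over the full windows, which reach past the start site, a CCAAT box was found in 3 of the 7 member promoters, those of Elovl1, Elovl4 and Elovl5, and in 37.4% of all 32851 promoters in the table. An E-box was found in 2 of 7, of Elovl4 and Elovl5, and in 7.15% of all promoters. The letters TTGCNNAA, a form of the C/EBP motif, were in 0 of 7 and in 10.8% of all. The sterol element form TCACNCCAC was in 0 of 7 and in 1.24% of all. Both strands were searched, no matches overlapped within the member promoters, and a missing match says only that these letters are not in this window.

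Elovl6, which lengthens palmitate to stearate and is a known target of the lipogenic factor SREBP1, varied most among Senp2-aKO samples after Elovl3. Its level was 3.45, 1.68, 3.37 and 4.34 in Senp2-aKO fat, against 3.06, 3.49, 3.57 and 3.71 in control fat. The Senp2-aKO samples spanned the controls, with aKO 2 below and aKO 4 above all of them. For Elovl6 the log2 difference was -0.25 (95% interval -1.39 to 0.89, limma adjusted p = 0.764, n = 4 each) and was 0.26 without aKO 2 (95% interval -0.37 to 0.89, adjusted p = 0.512). No direction can be given for Elovl6 from these arrays.

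Elovl7, an elongase of long saturated and polyunsaturated chains, behaved in the opposite manner on aKO 2. Its level was -3.81, -2.80, -4.16 and -4.41 in Senp2-aKO samples, against -4.01, -4.07, -4.14 and -4.00 in control samples. The highest value was that of aKO 2, the array with the highest lymphocyte marker means. For Elovl7 the log2 difference was 0.26 (95% interval -0.46 to 0.98, limma adjusted p = 0.605, n = 4 each) and -0.07 without aKO 2 (95% interval -0.40 to 0.26, adjusted p = 0.737).

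Fads2 and Fads1 carry out the steps at the sixth and the fifth carbon in polyunsaturated acid synthesis and lie side by side on chromosome 19. Fads1 had levels of 1.34, 0.99, 0.67 and 0.90 in Senp2-aKO fat, against 1.26, 1.76, 0.72 and 1.33 in control fat. Fads2 had levels of -2.86, -3.36, -3.46 and -2.45 in Senp2-aKO fat, against -3.35, -2.54, -3.47 and -2.72 in control fat. In both genes the groups overlapped, with control 2 above every Senp2-aKO sample for Fads1 and aKO 4 above every control sample for Fads2. The log2 difference was -0.29 for Fads1 (95% interval -0.82 to 0.23, limma adjusted p = 0.408, n = 4 each) and -0.01 for Fads2 (95% interval -0.67 to 0.65, adjusted p = 0.983). The neighbouring gene Fads3, which is no member, did not pass either (-0.47, SE 0.27, adjusted p = 0.261, or -0.19 without aKO 2).

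Elovl4 makes the longest chains, which are known from skin, retina and brain. One of its 2 probes was well above background on 0 of 8 arrays. The other was well above background on aKO 1 and aKO 4 and on no control array, with levels of -4.19, -5.05, -4.90 and -4.48 in Senp2-aKO samples, against -5.54, -7.04, -4.94 and -5.76 in control samples. The other 6 arrays were not well above background, so their signals are bounds and no fold is given. Elovl2, which elongates polyunsaturated chains and is no member, was likewise above background on 2 Senp2-aKO and 0 control arrays.

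The deviations of the members from their group means, which take out the difference between the groups, show how they moved within groups. On aKO 2 the deviations were -1.53 for Elovl6, -1.16 for Scd2, -0.26 for Elovl1 and -0.18 for Elovl5, against 0.99 for Elovl7. Over the 8 arrays those of Scd2 and Elovl6 correlated at 0.92, and those of Scd2 with the T lymphocyte mean at -0.95, or -0.52 without aKO 2. For Elovl6 the correlation with the T lymphocyte mean was -0.94, and -0.65 without aKO 2. For Scd1 the closest of the marker lists was the adipocyte list, at 0.96, and 0.94 without aKO 2. Elovl3 correlated with the adipocyte mean at -0.04, with the muscle mean at 0.26 and with the mammary epithelium mean at -0.70. These are descriptions over 8 arrays that share their scaling, and the part of lymphocytes in the low Scd2 and Elovl6 of aKO 2 was not tested.

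**Figure D3:**
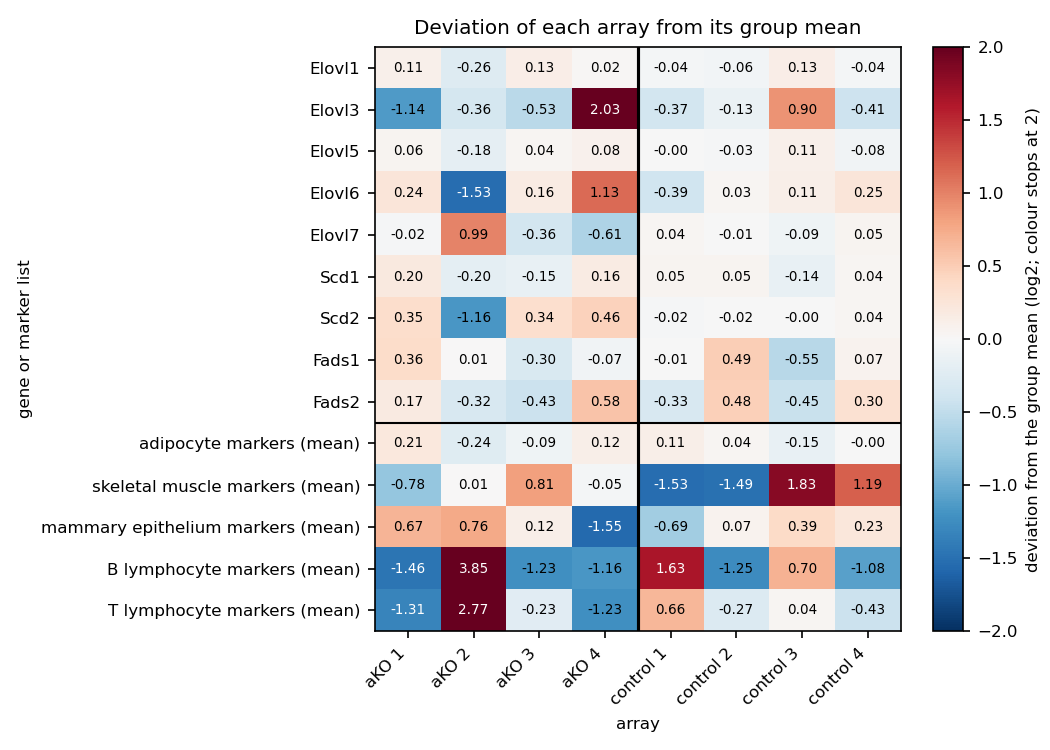
Deviation of each array from the mean of its group, in log2 units, for the 9 measured members (above the line) and the means of 5 marker lists (below), with the 4 Senp2-aKO arrays left and the 4 control arrays right. Elovl6 and Scd2 are low and Elovl7 and both lymphocyte lists high on aKO 2, while Elovl3 is highest on aKO 4.

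The 5 genes whose deviations were most like those of Elovl3 were Tbpl1, Espn, Acot11, Sap30bp and Kcnc4, with Pearson correlations of 0.95, 0.95, 0.95, 0.95 and 0.93 over the 8 arrays. Of these, Acot11, an acyl-CoA thioesterase known in brown fat, rose (log2 difference 2.02, SE 0.48, limma adjusted p = 0.0295), where 7.29% of all genes rose. The other 4 did not pass, with log2 differences from -1.44 (Espn) to 0.75 (Kcnc4). For Scd1 the 5 most alike were Uxt, Agpat3, Psma4, Cox6c and Nop10, with correlations from 0.98 to 0.99, none of which passed. Both sets are the top of a ranking of all measured genes over only 8 arrays. Whether such likeness exceeds chance was not tested.

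The enzymes that work with the elongases and desaturases did not pass either. Their lists are short, so counts of 0 do not set them apart from all genes, of which 7.29% rose and 7.12% fell. Before adjustment 2171 of all 14730 genes were higher and 2586 lower at a limma p under 0.05. These shares are the background for each list here and below. The elongase product is reduced and dehydrated by Hsd17b12, the Hacd enzymes and Tecr to complete the cycle. Of these 6 measured genes 0 rose and 0 fell in limma. Before adjustment, 1 was higher and 1 lower at p under 0.05, and the median log2 difference was -0.07, or 0.08 without aKO 2, the lowest Senp2-aKO array in 4 of the 6. Hsd17b12 stood at 0.19 (SE 0.22, adjusted p = 0.590) and Hacd1 at -0.38 (SE 0.21, adjusted p = 0.256), against 0.40 and -0.15 without aKO 2. Desaturases take electrons from cytochrome b5 and its reductases. Of these 6 genes 0 rose and 0 fell in limma, and 0 were higher and 3 lower before adjustment. The groups did not overlap in 4 of the 6, all lower in Senp2-aKO fat, against 26.3% of all genes. The median log2 difference was -0.32, or -0.18 without aKO 2, which was the lowest Senp2-aKO array in 5 of the 6. The lowest difference was -1.51 for Cyb5r2 (SE 0.51, limma adjusted p = 0.0852), and Cyb5b, the cytochrome of the outer mitochondrial membrane, stood at -0.84 (SE 0.28, adjusted p = 0.0841). Without aKO 2, Cyb5b fell (-0.53, adjusted p = 0.0159) and Cyb5a, the cytochrome of the endoplasmic reticulum, stood at 0.04, against -0.02 over all arrays. Of the 6 other elongases and desaturases measured, 0 rose and 0 fell in limma, 0 were higher and 2 lower before adjustment, and the median log2 difference was -0.48, or -0.23 without aKO 2.

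Supply of malonyl-CoA and palmitate showed 1 change. The gene that changed was Mid1ip1, whose product activates acetyl-CoA carboxylase. It fell 1.84-fold (log2 difference -0.88, SE 0.19, limma adjusted p = 0.0209, n = 4 each), and 0 of the 10 rose (2 higher and 1 lower before adjustment). The levels of Mid1ip1 were 2.90, 2.51, 3.46 and 3.06 in Senp2-aKO samples, against 3.94, 3.96, 3.81 and 3.75 in control samples, with no overlap. Acly, which makes cytosolic acetyl-CoA, stood at -0.52 (SE 0.29, adjusted p = 0.256), Acss2 at -0.10 (SE 0.42, adjusted p = 0.891), Acaca at 0.03 (SE 0.29, adjusted p = 0.953) and Acacb at 0.95 (SE 0.29, adjusted p = 0.0660). Without aKO 2 these differences were -0.20 for Acly, 0.34 for Acss2, 0.31 for Acaca and 0.91 for Acacb, none of which passed, and the list median was 0.25, against -0.11 over all arrays. In 8 of the 10 genes aKO 2 was the lowest Senp2-aKO array, against 46.3% of all genes. The Mid1ip1 call ended without aKO 1, control 1, control 2 or control 3 (adjusted p from 0.0535 to 0.0652).

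Among the acyl-CoA synthetases, which activate fatty acids before they are elongated or stored, 1 of 9 measured genes rose and 1 fell. Slc27a2 encodes a synthetase of very long chain fatty acids. Its level was -1.42, -1.36, -0.69 and 0.73 in Senp2-aKO fat, against -3.06, -2.79, -3.45 and -3.91 in control fat. The groups did not overlap, and aKO 4 was the highest, as for Elovl3. Slc27a2 was 6.13-fold higher in Senp2-aKO fat, with a 95% interval of 2.85 to 13.2 (limma adjusted p = 0.0140, n = 4 each). Acsl3 fell 2.13-fold (log2 difference -1.09, SE 0.31, adjusted p = 0.0499), and its call ended on leaving out aKO 1, aKO 2, aKO 4, control 1, control 2 or control 3 (adjusted p from 0.0591 to 0.128). Acsl1, the main synthetase of adipocytes, stood at 0.37 (SE 0.16, adjusted p = 0.160). Muscle marker means were higher on all 4 Senp2-aKO arrays, and their part in the rise of Slc27a2 was not tested.

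Of 15 measured genes that use long or unsaturated chains, 0 rose and 2 fell, both of them ceramide synthases (2 higher and 5 lower before adjustment). Cers6 fell to 0.501 of its control level, with levels of -3.12, -3.48, -3.15 and -3.42 in Senp2-aKO samples, against -2.27, -2.41, -2.08 and -2.42 in control samples (95% interval of the log2 difference -1.28 to -0.71, limma adjusted p = 0.00484, n = 4 each). Cers5 fell 1.35-fold (log2 difference -0.43, SE 0.11, adjusted p = 0.0348). These forms are known to prefer chains of palmitate length, whereas Cers2, which takes very long chains, stood at 0.10 (SE 0.13, adjusted p = 0.621), or 0.18 without aKO 2. Dgat1 and Dgat2, which make triglyceride, stood at 0.31 (SE 0.16, adjusted p = 0.215) and -0.85 (SE 0.27, adjusted p = 0.0738), and Dgat2 fell without aKO 2. The Cers5 call ended on leaving out aKO 3, aKO 4 or any control (adjusted p from 0.0530 to 0.0988). Of 11 genes of peroxisomal chain shortening, the route that takes very long chains apart, 0 rose and 0 fell, and 1 was higher and 1 lower before adjustment.

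Among 21 regulators known to act on elongase and desaturase genes, 3 rose and 0 fell in limma (5 higher and 3 lower before adjustment). Cebpd rose 2.49-fold, with levels of 6.59, 6.79, 6.30 and 6.52 in Senp2-aKO samples, against 5.36, 5.47, 5.18 and 4.92 in control samples (limma adjusted p = 0.00399, n = 4 each). Cebpb, the C/EBP factor named in the title of the series, rose 1.72-fold (log2 difference 0.79, SE 0.19, adjusted p = 0.0332). The coactivator Ppargc1a rose 2.84-fold (log2 difference 1.51, SE 0.30, adjusted p = 0.0178). Srebf1, which encodes SREBP1, stood at -0.30 (SE 0.23, adjusted p = 0.398), Srebf2 at -0.13 (SE 0.12, adjusted p = 0.461), Scap at -0.05 (SE 0.09, adjusted p = 0.698) and Insig1, which holds SREBP in the endoplasmic reticulum, at -1.33 (SE 0.40, adjusted p = 0.0587). Without aKO 2, Insig1 and Pparg fell, and Srebf1 stood at -0.06. The Cebpb call ended without aKO 3, aKO 4, control 1, control 3 or control 4 (adjusted p between 0.0605 and 0.0892) and under median scaling (0.69, adjusted p = 0.0594). Ppargc1a missed the threshold once control 1 was left out (adjusted p = 0.0510). With the replicate numbers as a block, Cebpb, Cers5, Mid1ip1, Acsl3 and Slc27a2 did not pass (adjusted p from 0.0526 to 0.0923).

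**Figure D4:**
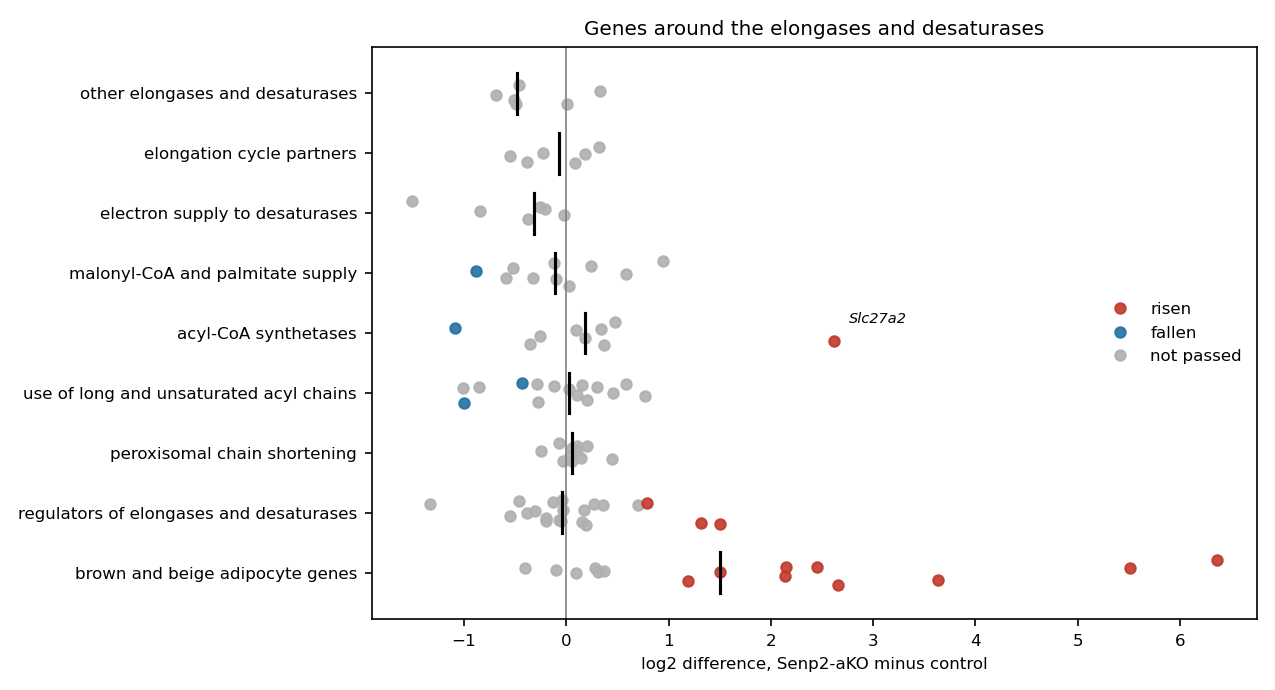
Log2 difference, Senp2-aKO minus control, of the measured genes of 9 lists around the elongases and desaturases. Points are genes, coloured by whether they rose, fell or did not pass in limma, and black lines are list medians. Most genes lie near 0 and grey, Slc27a2 stands out among the acyl-CoA synthetases at 2.62, and 9 of 15 brown and beige genes are red.

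Elovl3 is often counted with the genes of brown and beige adipocytes. Of 15 measured genes of that list 9 rose, against 7.29% of all genes. The list median was a log2 difference of 1.51, against -0.02 over all genes. The other 6 did not pass, with log2 differences from -0.40 (Zic1) to 0.37 (Eva1a). Among them Prdm16 stood at -0.10 and Tbx1 at 0.10, and Tmem26 was not measured. This list was drawn up with earlier results of these arrays known. In 6 of the 9, namely Ucp1, Cidea, Cox8b, Cox7a1, Fabp3 and Cpt1b, the highest array was aKO 4, as for Elovl3. The share of all risen genes that are highest on aKO 4 was not counted, so this count does not set the list apart. Ucp1, which lets mitochondria release heat, had levels of 5.04, 5.36, 4.43 and 6.65 in Senp2-aKO fat, against -1.11, 0.46, -1.52 and -1.78 in control fat. Control 3, which had the most Elovl3 among the controls, had less Ucp1 than control 2 and control 1. Some of the 9, Fabp3 and Cpt1b among them, are known from muscle too, and the muscle marker means given above moved with the group. The part of muscle in the rises of this list was not tested. The Cidea call ended without aKO 1, aKO 4, control 1 or control 3 (adjusted p from 0.0535 to 0.0785). Over the 9 lists together, 12 of 98 measured genes rose, the 9 of the brown and beige list among them, and 4 fell. Over all genes 7.29% rose and 7.12% fell. The count of falls was 8 without aKO 2 and 7 without aKO 3, 2 without aKO 1, and 1 without control 1, control 2 or control 3.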

How the data were processed

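Inguinal fat, in 4 Senp2-aKO and 4 control samples, was profiled on 1-colour Agilent arrays from 0.5 µg of total RNA labelled with Cy3, per the labels. The spots were read with Agilent Feature Extraction 11.5.1, per the submitters' processing notes. Per the file headers, the deposited processed signal is an intensity after background subtraction and detrending, and arrays were not scaled to each other. The deposited median signal and local background are intensities too, and the deposited spot flags are of the unit other, 0 or 1. A deposited table of normalised intensities was left out, since the names of its 8 columns match no label.

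From these, log2 processed signals were set relative to the 75th percentile of each array, and spots of a probe were averaged without outlier spots. A probe was kept if well above background on at least 4 of 8 arrays (30508 of 55681 probes). Probes were named through RefSeq accessions (annotation GRCm38.p6), and the kept probe with the highest mean stood for its gene, giving 14730 genes. The test between groups was limma 3.58.1 (R 4.3.3) with Benjamini-Hochberg adjustment over all genes, and a gene passed at an adjusted p under 0.05. Marker means were compared with a two-sided exact permutation test over 70 assignments of arrays. The labels do not say which samples came from separate animals, so p-values measure the spread between these samples, which may be technical. Array number limits the precision. The fit was tested on simulated data with known changes.

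The members, the 9 pathway lists (102 genes) and the 10 marker lists were chosen with earlier results of these data known. Named genes were the members, list genes that passed and up to 4 others a list in list order, the 5 genes most like Elovl3 and Scd1, and Senp2. Genes named outside this rule, such as Fads3, Dgat2, Cyb5r2, Cers2, Ucp1 and those whose call changed without aKO 2, were chosen after their values were seen. Alternatives were quantile normalisation, median scaling, normexp with quantile normalisation, other filters, probe means, the replicate block, array weights and leaving out each array. Same-numbered samples did not pair, with correlations of their deviations of -0.02, -0.08, 0.14 and 0.11.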

Additional observations from a re-analysis of the deposited data

Results flagged for a closer look

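Within groups of 4, 1 array stood far from the other 3 in 5 of 40 sets of values examined (members, second probes and marker means), where chance gives about 1 in 20. On aKO 2, Scd2 was 5.19, with the nearest other Senp2-aKO value at 6.69, and Elovl5 was 3.08, with the nearest at 3.31. The B lymphocyte marker mean of the same array was 2.08, with the nearest at -2.92. On control 3, Elovl1 was 5.56, with the nearest other control value at 5.40, and Scd1 was 8.90, with the nearest at 9.08.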

How the results depend on the processing

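The difference of Elovl3 was 5.56 to 6.08 on leaving out any array but aKO 4 (5.02), and 3.85 with normexp and quantile normalisation. It ranged over 5.02 to 6.08 in these omissions and could not be computed with the filter on all 8 arrays, which it did not pass. Of the other 8 members, 2 fell under quantile normalisation and 2 with normexp, 1 rose and 2 fell with array weights, and 0 or 1 rose and 0 or 1 fell when an array was left out. The sign turned for Elovl6 (0.35 with array weights, -0.62 to 0.26 leaving out arrays), Elovl7 (-0.061, and -0.073 to 0.46), Fads2 (0.21, and -0.20 to 0.15, above 0 without aKO 2 at 0.10, aKO 3 at 0.13, control 2 at 0.15 or control 4 at 0.09) and Scd1 (-0.0084 with normexp). Over the pathway lists 23 rose and 11 fell with array weights, and 8 fell under quantile normalisation, 10 with normexp, and 2 with no filter, with 9 to 17 rising and 1 to 8 falling on leaving out an array. Of all genes 1074 rose and 1049 fell. These counts were 1831 and 1932 with array weights, 772 and 1312 with median scaling, 1082 and 1599 with normexp, 848 and 689 with no filter, and from 434 to 1356 and from 280 to 1472 on leaving out an array. With the replicate block 725 rose and 569 fell, and in the pathway lists 2 fell, while 0 of the 8 members passed. Of 16 pathway genes that passed, 9 kept their call under every alternative run, and Cidea, Cebpb, Cers5, Mid1ip1, Ppargc1a, Acsl3 and Slc27a2 lost it under at least 1. The cause of these shifts was not tested. Signals near background limit Elovl4, Elovl7, Fads2 and the control level of Elovl3. Cers6 and Slc27a2 had low signals too. Over the alternatives the log2 difference of Cers6 ran from -1.09 to -0.52 and that of Slc27a2 from 1.62 to 2.96.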
